A study of Mus musculus with 12 samples.

Results

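The Ldh, Pgk, Gapdh and Pdha isozymes are enzymes of glycolysis and of the step that follows it, and each has a form found in most tissues and a form found in germ cells of the testis. The 9 genes described here are the somatic forms Ldha, Ldhb, Pgk1, Gapdh and Pdha1 and the testis forms Ldhc, Pgk2, Gapdhs and Pdha2. They were found by their symbols in all 12 libraries, none of the symbols occurred more than once, and they are 9 of the 22293 gene symbols that were kept. The libraries are RNA-seq of mouse male germ cells that are wild type (WT) or knockout (KO) for Zmym3, an X-linked gene for a zinc finger protein. The 4 groups from culture had 2 libraries each and were WT spermatogonial stem cells (SSCs), KO SSCs, WT c-KIT+ cells and KO c-KIT+ cells, where c-KIT+ cells are differentiating cells obtained from the same kind of SSCs with 100 nM retinoic acid (RA) for 36 h. The other libraries were of spermatocytes sorted from testes, 1 for each genotype at 5 and at 7 months of age by the labels, whereas the isolation methods give a single age that lies between these. All mice were male and of the CBA/C57 strain, and the labels give an age of 2 months for the cultured cells, whereas by the methods the lines were derived from pups or from adult mice and c-KIT+ cells were grown on laminin. The KO alleles are small deletions made with Cas9 in the second exon, and the KO and WT mice of the cell lines were littermates. Spermatocytes were sorted as tetraploid cells of large size, which the methods describe as enriched, mainly in pachytene, and not as pure. They differ from the other groups in source, age and handling as well as in stage, which cannot be told apart here. Nothing in the sources says whether the 2 libraries of a cultured group came from separate cultures, so p-values measure the spread between these libraries only.

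Glycolysis turns glucose into pyruvate. Phosphoglycerate kinase (Pgk) and glyceraldehyde-3-phosphate dehydrogenase (Gapdh) are enzymes of its lower part, lactate dehydrogenase (Ldh) converts pyruvate and lactate into each other, and pyruvate dehydrogenase (Pdh), of which Pdha genes encode a catalytic subunit, feeds pyruvate into the mitochondrial citric acid cycle. In mammals Pgk1 and Pdha1 lie on the X chromosome, which is transcriptionally silenced in male meiosis, and Pgk2 and Pdha2 are intronless copies of them on autosomes. Ldhc is known from spermatocytes onwards and Gapdhs from spermatids, where its enzyme is bound to the sperm tail. Spermatocytes are known to use lactate and pyruvate that Sertoli cells supply.

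The gene models in the files show this arrangement. On mm9, Pgk1 spans 16576 bases of chromosome X (103382463 to 103399038) and Pgk2 1592 bases of chromosome 17 (40343963 to 40345554). Pdha1 spans 16118 bases of chromosome X (156560151 to 156576268) and Pdha2 2352 bases of chromosome 3 (140872968 to 140875319). Ldha (54101174 to 54110997) and Ldhc (54116633 to 54133512) are neighbours on chromosome 7 with 5635 bases between them. Gapdhs also lies on chromosome 7 (31514906 to 31524375), while Gapdh (125111870 to 125115601) and Ldhb (142438769 to 142456463) lie on chromosome 6.

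The promoters of the members differ in sequence between the somatic and the testis form of each pair. RefSeq promoter sequences on GRCm38.p6 were matched by symbol for 9 of 9 members, and the start whose distance to the gene's far end was nearest to the span in the files was taken. The 150 bases before the transcription start are shown for the testis forms and for Ldha and Pgk1. Ldha and Pgk1 were added because, in spermatocytes against cultured cells, Ldhc and Ldha rose together and Pgk1 and Pgk2 went apart. Under RA, in contrast, Ldhc rose and Ldha fell. Capitals mark the GC box GGGCGG, the half-site TGACG of the cAMP response element (CRE), the CCAAT box CCAAT and the TATA box TATAAA, each searched on both strands, so that a match on the other strand is read as its reverse complement. The full CRE, TGACGTCA, is made of overlapping half-sites.
Ldhc, chr7:46861113-46861262, plus strand: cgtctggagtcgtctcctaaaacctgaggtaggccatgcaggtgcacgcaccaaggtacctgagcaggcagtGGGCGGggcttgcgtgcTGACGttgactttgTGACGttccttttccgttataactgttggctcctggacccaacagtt
Ldha, chr7:46845654-46845803, plus strand: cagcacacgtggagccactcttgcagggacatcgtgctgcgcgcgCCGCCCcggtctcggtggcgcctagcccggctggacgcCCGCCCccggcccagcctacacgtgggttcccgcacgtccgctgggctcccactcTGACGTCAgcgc
Pgk2, chr17:40208610-40208759, minus strand: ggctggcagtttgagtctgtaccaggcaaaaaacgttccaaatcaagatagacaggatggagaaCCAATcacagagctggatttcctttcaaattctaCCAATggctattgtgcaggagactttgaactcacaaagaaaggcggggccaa
Pgk1, chrX:106186950-106187099, plus strand: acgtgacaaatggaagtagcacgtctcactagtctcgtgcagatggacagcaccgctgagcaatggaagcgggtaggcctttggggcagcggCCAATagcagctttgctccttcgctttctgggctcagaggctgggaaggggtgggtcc
Gapdhs, chr7:30739408-30739557, minus strand: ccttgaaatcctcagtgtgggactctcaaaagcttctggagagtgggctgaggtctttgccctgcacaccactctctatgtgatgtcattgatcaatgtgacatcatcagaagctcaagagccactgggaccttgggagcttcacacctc
Pdha2, chr3:141212356-141212505, minus strand: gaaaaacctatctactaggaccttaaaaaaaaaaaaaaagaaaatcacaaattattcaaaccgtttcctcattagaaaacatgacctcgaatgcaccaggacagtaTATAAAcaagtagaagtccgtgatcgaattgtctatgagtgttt

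Over the 250 bases before the start, Ldhc and Ldha both held GC boxes and CRE half-sites. The Ldhc promoter had 2 half-sites and 1 GC box, and the Ldha promoter had 2 GC boxes and a full CRE. The Pgk2 promoter had 2 CCAAT boxes and the Pgk1 promoter 1, beside 1 GC box further upstream. The Pdha2 promoter had 1 TATA box, and in the Gapdhs promoter none of the letters searched was found. Among 27018 promoters of the same length, 32.9% held the GC box, 34.5% the CCAAT box, 17.9% the half-site, 13.0% the TATA box and 1.62% the full CRE, so that of these only the full CRE of Ldha is a rare match. The testis forms had fewer CpG dinucleotides than their partners in each of the 4 pairs. The counts were 8 in Ldhc and 25 in Ldha, 3 in Pgk2 and 17 in Pgk1, 0 in Gapdhs and 8 in Gapdh, and 4 in Pdha2 and 15 in Pdha1, where the median of all promoters was 6. The GC content of the same stretches was 54.4% in Ldhc and 67.2% in Ldha, 42.0% in Pgk2 and 62.8% in Pgk1, 52.4% in Gapdhs and 55.6% in Gapdh, and 31.6% in Pdha2 and 61.6% in Pdha1, with a median of 52.0% over all promoters. These are matches of letters and say nothing of which factor binds.

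How far a read can be assigned to 1 gene differs between the members, and this bears on every level below. Of the 50-base windows of the Ldhc, Pgk2 and Pdha2 transcripts (GENCODE M21 models), 0% occur in the transcript of another gene, and no window of any member is shared with its partner. For Gapdh 82.5% of the windows also occur in 222 other genes, of which 215 are annotated pseudogenes, and for Pgk1 68.0% do, in 5 pseudogenes. The share was 27.0% for Ldhb, 16.6% for Ldha, 16.9% for Pdha1, nearly all of it with the overlapping gene Map3k15, and 4.55% for Gapdhs, with an antisense gene. How the authors' software split such reads was not tested, so the levels of Gapdh and Pgk1 are uncertain, and strand use is not given in the sources used here.

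The target gene was measured first. Zmym3 was at 40.2 and 37.4 FPKM (fragments counted per length of the gene and per depth of the library) in the WT SSC libraries, and at 9.19 and 9.76 in the KO SSC libraries. It was at 39.9 and 39.7 FPKM in WT c-KIT+ cells and at 10.0 and 11.3 in KO c-KIT+ cells. Spermatocytes had 0.41 and 0.46 FPKM in WT and 0.15 and 0.34 in KO, near 0 in both genotypes, so the gene checks the genotype labels of the cultured libraries only. The FPKM hold no counts. Confidence limits, which let fragments be recovered, stand only in the file of 5-month WT spermatocytes. They returned 70772 fragments on Ldhc, 17965 on Ldha, 40 on Ldhb (95% Poisson interval 28.6 to 54.5) and 4 on Pgk1 (1.09 to 10.2), intervals that cover counting error only. The other libraries had 0.92 to 1.22 times its depth as read from the spacing of low values. The 9 spermatogonia markers summed to 556 to 1268 FPKM in the cultured libraries and 11.3 to 16.6 FPKM in spermatocytes, and the 8 spermatocyte markers to 99.1 to 208 FPKM and 1421 to 1444 FPKM, which go with the labels. The correlation of log2(FPKM + 1) over genes was 0.988 to 0.998 between libraries of a group and 0.631 to 0.665 between cultured and spermatocyte libraries.

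The levels of the members other than Ldhb separated the spermatocyte libraries from the cultured ones, as the plot of the members by library shows. Ldhc, the sperm-type lactate dehydrogenase, was at 2668 and 2510 FPKM in WT spermatocytes and at 2560 and 2492 FPKM in KO spermatocytes. It had the highest FPKM of all symbols in each of these 4 libraries. In SSCs Ldhc was at 2.01 and 2.56 FPKM in WT and 1.85 and 2.73 FPKM in KO. The levels in c-KIT+ cells were 3.83 and 4.57 FPKM in WT and 3.91 and 4.10 FPKM in KO. The order of the levels was therefore spermatocytes over c-KIT+ cells over SSCs, with no overlap between the 3 cell states. How many of all genes separate in this way was not counted. The genotypes overlapped in SSCs and c-KIT+ cells, while the WT and KO means of spermatocytes, 2589 and 2526 FPKM, were closer than the WT libraries to each other.

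**Figure D1:**
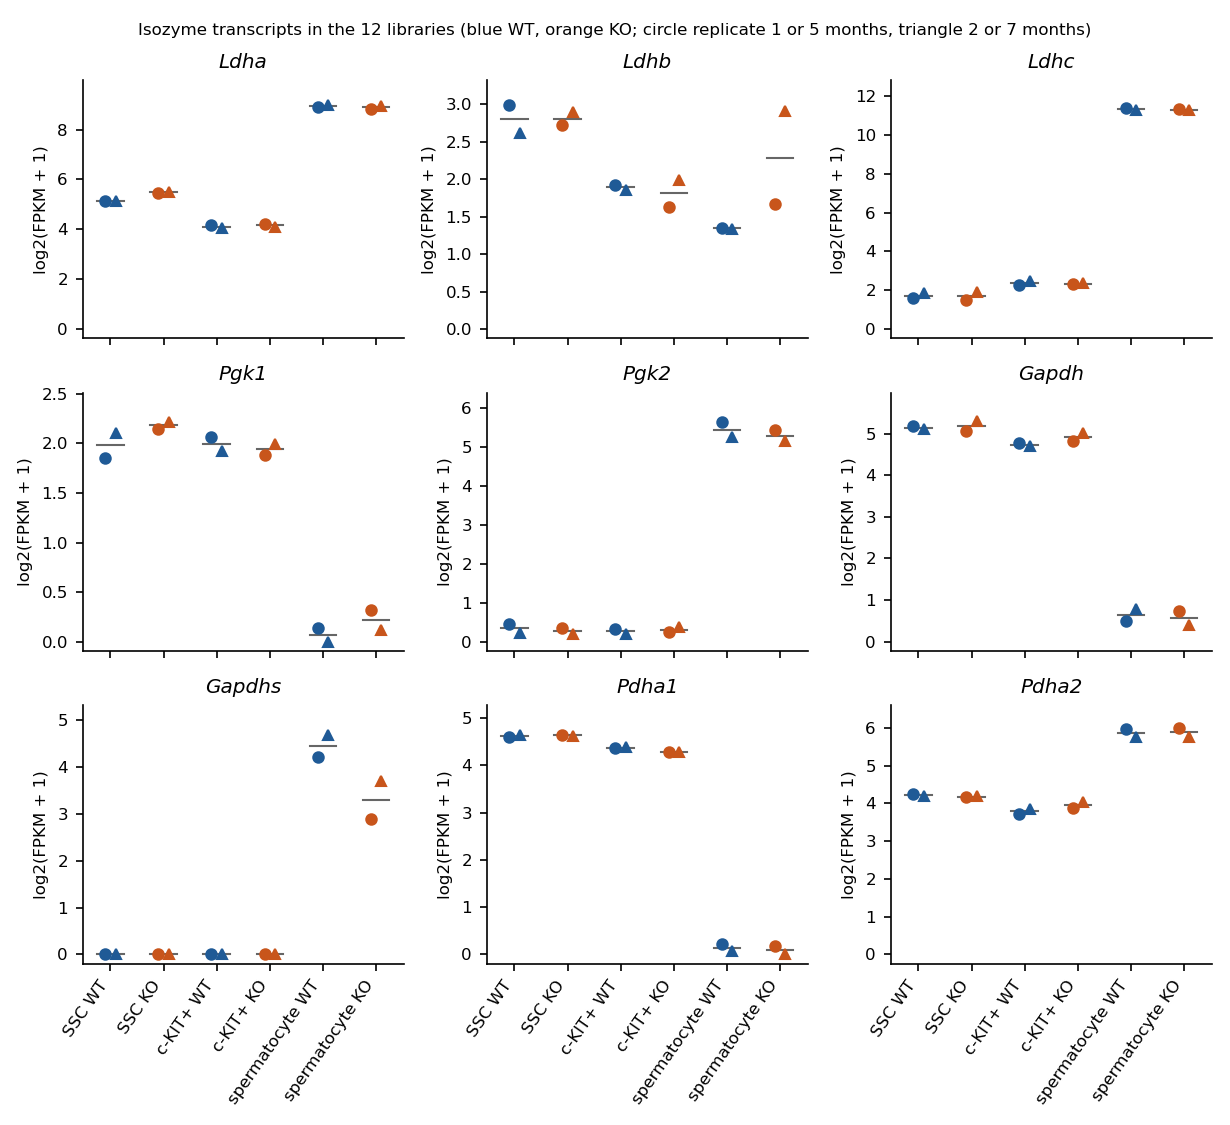
Level of the 9 isozyme genes as log2(FPKM + 1) in the 12 libraries, with 1 point per library, the bar at the group mean of 2 libraries and a vertical axis of its own for each gene. Ldhc, Pgk2, Gapdhs and Pdha2 are highest in the 4 spermatocyte libraries, as is the somatic form Ldha, and Pgk1, Gapdh and Pdha1 are near 0 there.

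Ldha, which encodes the muscle-type subunit, was also highest in spermatocytes. It was at 34.3 and 33.9 FPKM in WT SSCs and 43.0 and 44.1 FPKM in KO SSCs. The levels in c-KIT+ cells were 17.2 and 15.5 FPKM in WT and 17.7 and 16.0 FPKM in KO, under those of SSCs. In spermatocytes the gene reached 474 and 511 FPKM in WT and 458 and 491 FPKM in KO, with a rank of 35 to 51 among all symbols. The mean of the spermatocyte libraries was 17.4 times the mean of the cultured ones for Ldha and 800 times for Ldhc. Ldhb, which encodes the heart-type subunit, had another order. It was at 6.95 and 5.13 FPKM in WT SSCs, 5.61 and 6.40 in KO SSCs, 2.80 and 2.63 in WT c-KIT+ cells and 2.10 and 2.96 in KO c-KIT+ cells. In spermatocytes it was at 1.54 and 1.53 FPKM in WT and at 2.18 and 6.47 FPKM in KO, so that the KO library at 7 months stood with the SSCs and apart from the other spermatocyte libraries.

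Pgk1, the X-linked phosphoglycerate kinase, was low in all libraries. It was at 2.61 and 3.31 FPKM in WT SSCs, 3.43 and 3.64 in KO SSCs, 3.18 and 2.80 in WT c-KIT+ cells and 2.69 and 2.99 in KO c-KIT+ cells. In spermatocytes it was at 0.10 FPKM and listed at 0 in WT, and at 0.25 and 0.083 FPKM in KO. Pgk2, its autosomal copy, was between 0.14 and 0.38 FPKM in the 8 cultured libraries. In spermatocytes Pgk2 was at 49.5 and 37.2 FPKM in WT and 42.2 and 34.5 FPKM in KO. Neither gene overlapped between cultured cells and spermatocytes. The share of all genes without overlap was not counted, and 85.9% of those tested were called for spermatocytes against SSCs in WT. The levels of Pgk2 at 5 months lay over those at 7 months in both genotypes.

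Gapdh was at 35.3 and 33.6 FPKM in WT SSCs, 32.7 and 38.3 in KO SSCs, 26.4 and 24.9 in WT c-KIT+ cells and 27.3 and 31.1 in KO c-KIT+ cells. Spermatocytes had 0.42 and 0.72 FPKM in WT and 0.68 and 0.31 FPKM in KO. The gene is widely used as a constant reference, and here its listed level was among those of the members that differed most between cell states. That level is uncertain, since 82.5% of the windows of its transcript also occur in other genes. Gapdhs, the sperm form of the enzyme, was listed at 0 in each of the 8 cultured libraries. In spermatocytes it was at 17.7 and 24.8 FPKM in WT and at 6.36 and 12.05 FPKM in KO, with both KO libraries under both WT libraries.

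Pdha1, the X-linked subunit, was at 23.1 and 23.9 FPKM in WT SSCs, 24.1 and 23.7 in KO SSCs, 19.6 and 19.8 in WT c-KIT+ cells and 18.3 and 18.5 in KO c-KIT+ cells. Spermatocytes had 0.16 and 0.050 FPKM in WT, and 0.14 FPKM in one KO library, while the gene was listed at 0 in the KO library at 7 months. Pdha2, its autosomal copy, was the exception among the testis forms, since it was already well above 0 in culture. It was at 17.9 and 17.4 FPKM in WT SSCs, 17.1 and 17.3 in KO SSCs, 12.2 and 13.5 in WT c-KIT+ cells and 13.7 and 15.4 in KO c-KIT+ cells. In spermatocytes Pdha2 was at 61.3 and 53.1 FPKM in WT and 63.03 and 53.3 FPKM in KO. No window of its transcript is shared with another gene, as given above.

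Within each pair the share of the testis form was computed per library from the FPKM, as a description without a test. The share of Ldhc in the sum of Ldhc and Ldha was 4.11% to 7.02% in SSCs, 18.1% to 22.8% in c-KIT+ cells and 83.1% to 84.9% in spermatocytes. The sum of the pair fell from 36.3 to 46.9 FPKM in SSCs to 20.0 to 21.6 FPKM in c-KIT+ cells, so the larger share in c-KIT+ cells came with a lower Ldha as well as a higher Ldhc. The share of Pgk2 was 3.71% to 12.6% in cultured cells and 99.4% to 100% in spermatocytes. The share of Gapdhs was 0% in cultured cells and 97.7%, 97.2%, 90.4% and 97.5% in the spermatocyte libraries, where the lowest is the KO library at 5 months. The share of Pdha2 was 38.3% to 45.4% in cultured cells and 99.7% to 100% in spermatocytes. The form that made up most of a pair in spermatocytes was the testis form in 4 of 4 pairs and 4 of 4 libraries. Of the Ldh total, Ldhb made up 8.83% to 16.1% in culture and 0.049% to 0.22% in spermatocytes.

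**Figure D2:**
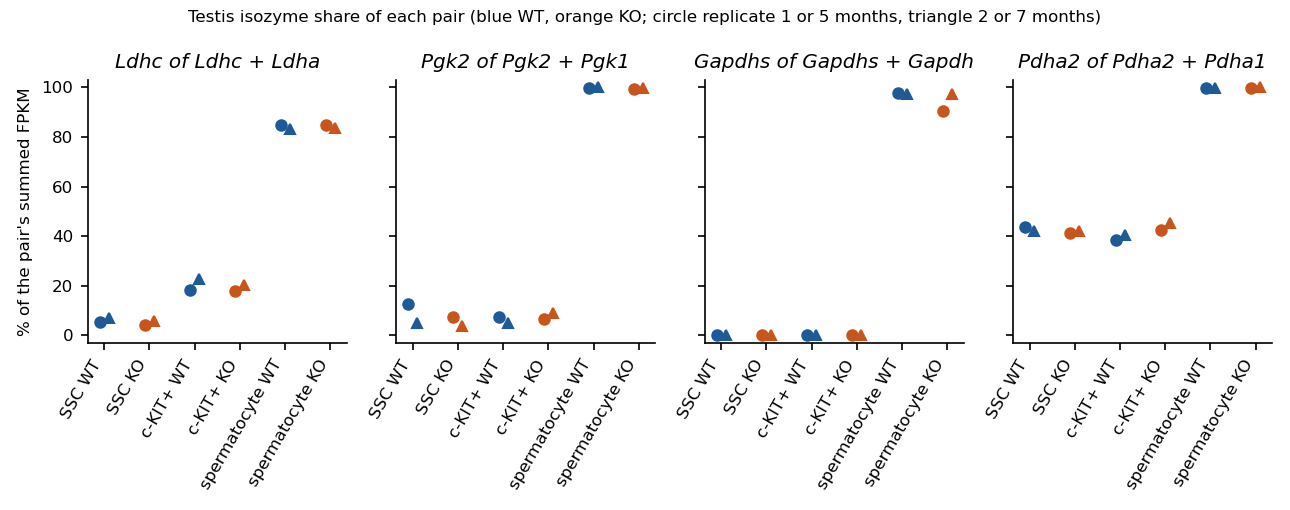
Share of the testis form in the summed FPKM of its pair, in percent, with 1 point per library. The share of Ldhc rises in steps from at most 7.02% in SSCs to at least 83.1% in spermatocytes, while Pdha2 starts from 38.3% to 45.4% in culture.

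The comparison of spermatocytes with SSCs asked which members differ between the stem cell stage and meiosis. In WT all 9 members passed the filter of 1 FPKM in at least 2 libraries, and 5 rose and 4 fell (limma on log2(FPKM + 1), adjusted p under 0.01). This is read against 85.9% of the 13247 genes tested that were called in the same comparison, 26.1% higher and 59.7% lower, with a median difference of -0.89 over all genes and 1.64 over the 9 members. A call is therefore the usual state of a gene here, and the size carries the description, with the direction for members over 1 FPKM on both sides. Pgk2 and Gapdhs passed the filter only through the spermatocyte libraries, and Pgk1, Gapdh and Pdha1 only through the cultured ones. Their direction follows from how they were admitted, here and against c-KIT+ cells. The same holds for genes of the lists below that stay under 1 FPKM on one side. The differences on the log2 scale were 9.63 for Ldhc (SE 0.14), 5.11 for Pgk2 (SE 0.15), 3.81 for Ldha (SE 0.09) and 1.64 for Pdha2 (SE 0.11). They were -4.50 for Gapdh (SE 0.14), -4.48 for Pdha1 (SE 0.08), -1.91 for Pgk1 (SE 0.11) and -1.46 for Ldhb (SE 0.33). Adjusted p-values of the 9 ran from 3.04e-11 for Ldhc to 0.00216 for Ldhb. Gapdhs, the fifth member that rose, was listed at 0 in the SSC libraries and is given no fold. Peritubular and fibroblast markers summed to 50.6 to 77.1 FPKM in culture and 1.18 to 2.63 FPKM in spermatocytes, and the 12 spermatid markers to 5.55 to 12.7 FPKM and 239 to 583 FPKM, and the part of such cells in these differences was not tested. The scale understates the changes of Pgk1, Pgk2, Gapdh and Pdha1, which are near 0 on one side. With a pseudocount of 0.1 the difference was -6.92 for Pdha1 and -5.73 for Gapdh, so the like values of these members on the main scale need not show like changes. Over all libraries the cultured mean was 249 times the spermatocyte mean for Pdha1 and 58.7 times for Gapdh. In 5-month WT spermatocytes each of these genes rested on about 10 fragments (95% Poisson interval 4.80 to 18.4), and reads of Gapdh are hard to assign. The size of either change is therefore uncertain.

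In KO the same 5 members rose and 3 fell, against 85.2% of all genes called, 25.6% higher and 59.6% lower. The differences were 9.60 for Ldhc, 5.02 for Pgk2, 3.41 for Ldha and 1.70 for Pdha2, and -4.62 for Gapdh, -4.54 for Pdha1 and -1.96 for Pgk1. Ldhb differed by -0.52 (SE 0.33, adjusted p = 0.160) and was not called. Without the KO library at 7 months the Ldhb difference was -1.14 and was called (adjusted p = 0.000368, limma), and without the WT SSC replicate 1 or the WT library at 7 months the WT call was lost (adjusted p = 0.0199 and 0.0101, limma). It was also lost with quantile normalization (-0.33, adjusted p = 0.263) and median-ratio scaling (-0.66, adjusted p = 0.0979), which leaves 3 members that fell in WT, and over all alternatives the adjusted p ran from 1.62e-05 to 0.263. The difference between the KO and the WT change was called for 0 of 9 members, against 0.702% of all genes (limma, 93 of 13247 genes, 55 higher and 38 lower, or 25 and 6 with a pseudocount of 0.1). At an unadjusted p under 0.05 were Ldha and Gapdhs. By this test Gapdhs had -1.16 (SE 0.33, adjusted p = 0.124), Ldha -0.40 (SE 0.12, adjusted p = 0.146) and Ldhb 0.94 (SE 0.47, adjusted p = 0.432), and of these Gapdhs passed without the KO library at 7 months (-1.58, adjusted p = 0.00851) and Ldhb without the KO library at 5 months (1.56, adjusted p = 0.00971).

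Against c-KIT+ cells 5 members rose and 3 fell in each genotype, with 85.8% of all genes called in WT (24.7% higher and 61.1% lower) and 85.3% in KO (24.3% and 61.0%). The members that rose were again Ldhc (8.96 in WT and 8.98 in KO), Pgk2 (5.19 and 4.98), Ldha (4.83 and 4.74), Pdha2 (2.07 and 1.93) and Gapdhs, listed at 0 in c-KIT+ cells. Those that fell were Pdha1 (-4.23 and -4.19), Gapdh (-4.09 and -4.35) and Pgk1 (-1.92 and -1.72). Ldhb differed by -0.55 in WT and by 0.48 in KO (adjusted p = 0.138 and 0.194) and was not called. It was called lower in WT without either KO spermatocyte library (adjusted p = 0.00695 and 0.00698), and in a fit of the compared groups (0.00174), and higher in KO without the KO library at 5 months (1.09, adjusted p = 0.000462), with quantile normalization (1.59, 0.000284) and with median-ratio scaling (1.38, 0.0041). Over all alternatives its adjusted p ran from 0.00174 to 0.489 in WT and from 0.000284 to 0.515 in KO. With median-ratio scaling the median difference from SSCs in WT moved from -0.89 to -0.11 and the calls split into 39.6% higher and 43.4% lower in place of 26.1% and 59.7%, with 39.1% and 43.0% in KO and, against c-KIT+ cells, 39.4% and 43.4% in WT and 39.0% and 43.0% in KO. Quantile normalization gave 35.6% and 47.2% against SSCs and 34.6% and 47.7% against c-KIT+ cells in WT, 35.5% and 46.4% and 34.6% and 46.9% in KO, with a median of -0.29 against SSCs in WT. The directions of the 8 members other than Ldhb were the same under every scaling. Of these, only Ldhc, Ldha and Pdha2 were over 1 FPKM on both sides, and for the others the direction follows from the filter. The direction of Ldhb turned under quantile normalization and median-ratio scaling in KO against SSCs and in WT against c-KIT+ cells.

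**Figure D3:**
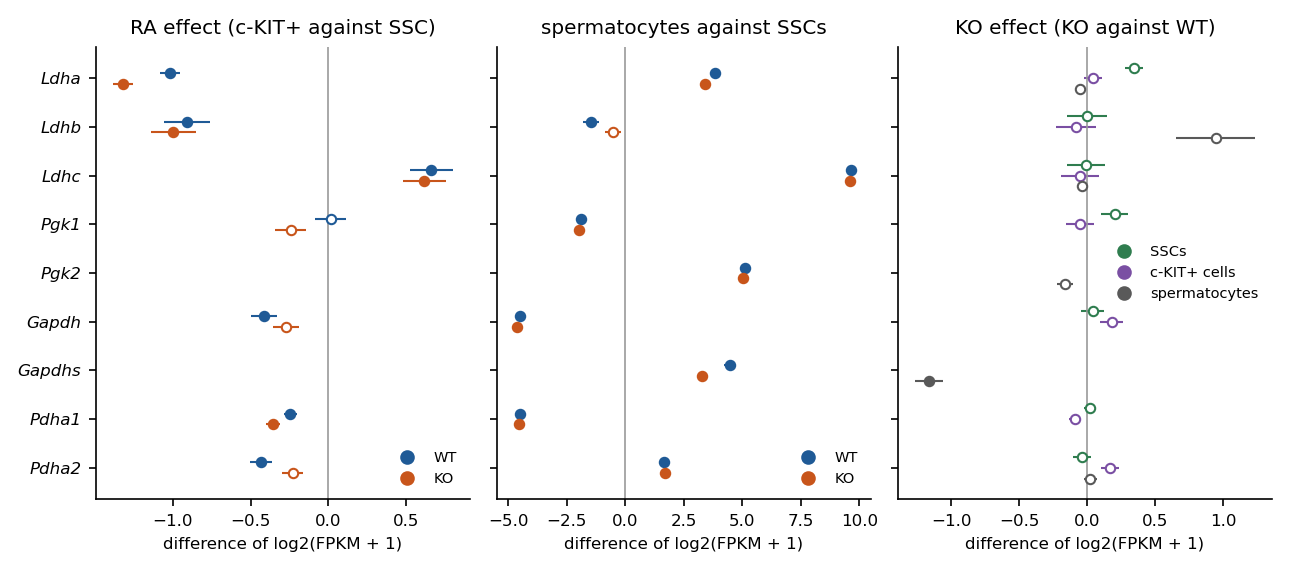
Differences of log2(FPKM + 1) with their standard errors for the members that passed the filter, for RA in WT and KO, spermatocytes against SSCs in WT and KO, and KO against WT in 3 cell states. Filled points were called at adjusted p under 0.01, or under 0.05 for KO in spermatocytes, the Gapdhs points of the middle panel are against libraries at 0 and bound no fold, and the scale of the middle panel reaches 9.63 where that of the others stays under 2.

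RA treatment asked how the members change as SSCs become c-KIT+ cells. The paper describes the cultures induced with RA as feeder-free, while its SSC proliferation assay used a fibroblast feeder. Whether the sequenced SSCs were grown on a feeder is not stated there. A part of feeder cells or substrate in the differences below was not tested. In WT 7 members passed the filter, and Ldhc rose while Ldha, Ldhb, Gapdh, Pdha1 and Pdha2 fell, against 40.7% of 11981 genes called, 24.9% higher and 15.9% lower, with a median of 0.08. Ldha fell by 1.02 (SE 0.06, adjusted p = 6.1e-06, limma) and Ldhb by 0.91 (SE 0.15, adjusted p = 0.000925). Pdha2 fell by 0.43 (SE 0.07, adjusted p = 0.000804), Gapdh by 0.41 (SE 0.08, adjusted p = 0.00329) and Pdha1 by 0.24 (SE 0.04, adjusted p = 0.00155). Ldhc rose by 0.66 (SE 0.14, adjusted p = 0.00378), with both c-KIT+ libraries over both SSC libraries. Pgk1 was at 2.61 and 3.31 FPKM in SSCs and 3.18 and 2.80 in c-KIT+ cells, with overlapping groups. Pgk2 and Gapdhs stayed under the filter and were not tested.

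In KO Ldhc rose and Ldha, Ldhb and Pdha1 fell, against 40.5% of all genes, 24.6% higher and 16.0% lower. Ldha fell by 1.32 (SE 0.06, adjusted p = 1.7e-06, limma), Ldhb by 1.00 (SE 0.15, adjusted p = 0.000562) and Pdha1 by 0.36 (SE 0.04, adjusted p = 0.000196), and Ldhc rose by 0.62 (SE 0.14, adjusted p = 0.0053). Pdha2 (-0.23, adjusted p = 0.019), Gapdh (-0.27, adjusted p = 0.023) and Pgk1 (-0.24, adjusted p = 0.0722) were not called. The interaction of RA and KO was called for 0 of 7 members and 0 of all 11981 genes, of which 865 had an unadjusted p under 0.05, so no difference of the RA response between the genotypes was detected for a member. Its largest size was -0.30 for Ldha (adjusted p = 0.511). The higher Ldhc was lost in WT without SSC replicate 1 (adjusted p = 0.0287) or c-KIT+ replicate 2 (0.0308), and in KO without SSC replicate 1 (0.0346), c-KIT+ replicate 1 (0.0191) or c-KIT+ replicate 2 (0.0281). The lower Gapdh in WT was lost without any one of the 4 WT libraries (adjusted p = 0.0116 to 0.0261), and the lower Pdha1 without SSC replicate 2 (0.0123), c-KIT+ replicate 1 (0.0147) or c-KIT+ replicate 2 (0.0122), and with an equal FPKM total (-0.17, adjusted p = 0.0864). With median-ratio scaling the split of all calls was 19.3% higher and 23.1% lower in WT and 19.2% and 22.7% in KO, and with an equal FPKM total it was 31.1% and 12.1% in WT. With median-ratio scaling Gapdh and Pdha2 were called lower in KO too (adjusted p = 0.0023 and 0.00181).

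The KO comparison within the cultured cells gave 0 of 7 members in SSCs, where 4.90% of genes were called (2.11% higher and 2.79% lower, or 4.13% and 2.26% with an equal FPKM total), and 0 of 7 in c-KIT+ cells, where 2.70% were (1.11% higher and 1.59% lower, limma). In SSCs Ldha was nearest to the threshold. Both KO libraries (43.0 and 44.1 FPKM) lay over both WT libraries (34.3 and 33.9 FPKM), with a difference of 0.34 (SE 0.06, adjusted p = 0.0111, limma). It passed without either KO c-KIT+ library (adjusted p = 0.00843 and 0.00832), in a fit of the compared groups (0.00688) and with an equal FPKM total (0.00404), and the range over all alternatives was 0.00404 to 0.0781. The 8 markers of peritubular and fibroblast cells summed to 76.7 and 74.9 FPKM in WT SSCs and 51.8 and 50.7 FPKM in KO SSCs, with 5 of 7 tested called lower in KO, and their part in the level of Ldha was not tested. The unadjusted p was under 0.05 for this gene alone of 7 in SSCs, and in c-KIT+ cells for Pdha2 alone (0.17, adjusted p = 0.191).

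In spermatocytes 6 members passed the filter, and Gapdhs was lower in KO, with 1.67% of 9350 genes called, 0.332% higher and 1.34% lower (limma with age as a block, adjusted p under 0.05). The difference was -1.16 (SE 0.10, adjusted p = 0.0323). The KO library held 0.36 times the WT level at 5 months and 0.48 times at 7 months. The call was lost without the variance trend (adjusted p = 0.0715), without the filter (0.347) and without age in the 4 libraries (adjusted p = 1). It was also lost in a fit of all 12 libraries without age (0.0566), in which leaving out single spermatocyte libraries gave differences of -1.58 to -0.75 and adjusted p from 0.00275 to 0.245, the last without the WT library at 7 months, and the range over its alternatives was 0.00275 to 1. Ldhc was at 0.96 and 0.99 times the WT level at 5 and 7 months, Ldha at 0.97 and 0.96 times, Pdha2 at 1.03 and 1.00 times, and Pgk2 at 0.85 and 0.93 times (-0.16, SE 0.06, adjusted p = 0.336). Ldhb was at 1.42 and 4.24 times the WT level (0.94, SE 0.29, adjusted p = 0.271), and was called only in the 12-library fit without age once the KO library at 5 months was left out (1.56, adjusted p = 0.00293).

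Markers of other cells moved with these genes. The 12 spermatid markers summed to 583 and 555 FPKM in WT spermatocytes and 239 and 287 FPKM in KO. Of the 12, 8 were called lower in KO and 0 higher, beside 1.34% lower and 0.332% higher of all 9350 genes. Prm1, Prm2, Prm3, Odf1 and Oaz3 of the 12 are also named by the paper as lower in KO spermatocytes, from these same libraries. The count and the sum are therefore not independent of that report and are a description only. In cultured cells they summed to 5.55 to 12.7 FPKM, with 5 to 7 of them at 0. The KO level of the spermatid sum was 0.41 times that of WT at 5 months and 0.52 times at 7 months, beside 0.36 and 0.48 for Gapdhs. Smcp, a sperm mitochondrial protein and 1 of the 12, was at 24.8 and 42.3 FPKM in WT and 8.05 and 18.4 FPKM in KO. Spermatids are haploid and the tetraploid sort is meant to leave them out. The paper cautions that the sorted cells may hold a minor share of secondary spermatocytes, which it says are missing from KO testes. The part of spermatids or of secondary spermatocytes in the lower Gapdhs was not tested. In bulk libraries fewer cells of a type and less RNA per cell cannot be told apart. The spermatocyte markers summed to 1421 and 1426 FPKM in WT and 1444 and 1431 FPKM in KO, and 0 of the 8 were called, beside 1.67% of all genes.

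The Sertoli cell markers, 8 genes that were found, summed to 19.8 and 29.0 FPKM in WT spermatocytes and 51.1 and 134 FPKM in KO. Of the 3 tested 1 was called higher in KO, beside 0.332% of all genes. In culture the sum was 2.79 to 4.59 FPKM. The KO library at 7 months had the highest sum, with Clu, which encodes clusterin, at 93.0 FPKM and Amhr2, a hormone receptor, at 28.3 FPKM, and it also had the highest Ldhb (6.47 FPKM). Sertoli cells are diploid and the sort for large tetraploid cells is meant to leave them out, and their part in the level of Ldhb was not tested.

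**Figure D4:**
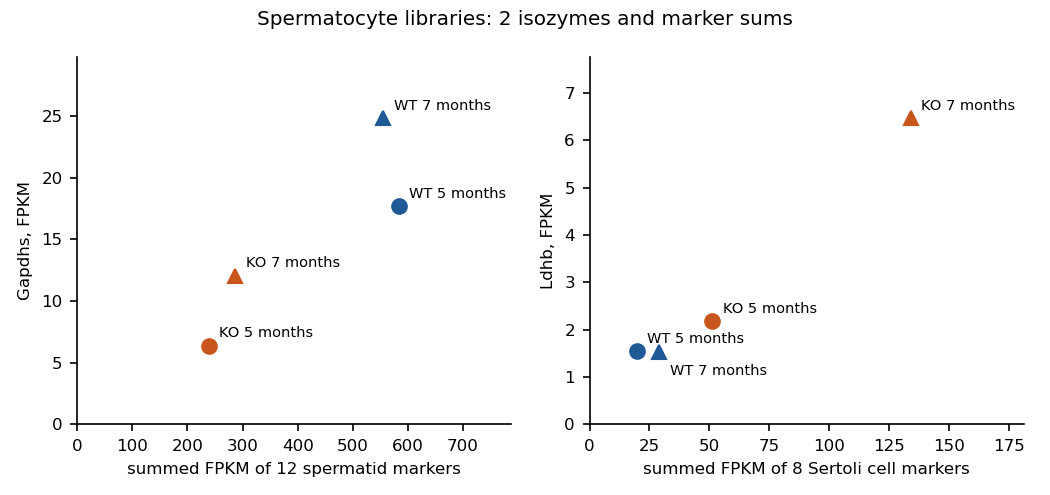
Gapdhs against the summed FPKM of 12 spermatid markers and Ldhb against that of 8 Sertoli cell markers, in FPKM, with 1 point for each of the 4 spermatocyte libraries. Both KO libraries are lowest in Gapdhs and in the spermatid sum, and the KO library at 7 months is highest in Ldhb (6.47 FPKM) and in the Sertoli sum (134 FPKM).

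Other steps of the pathway also had one form higher and another lower. Of 24 further glycolysis genes 17 passed the filter for spermatocytes against SSCs in WT. Of these 9 rose and 8 fell, beside 26.1% of all genes that rose and 59.7% that fell. Their median was 0.87 against -0.89 for all genes. In KO 8 rose and 8 fell, beside 25.6% and 59.6% of all genes. Pgam2, a phosphoglycerate mutase otherwise known from muscle, rose by 8.59, from 0.055 and 0.15 FPKM in WT SSCs to 406 and 437 FPKM in WT spermatocytes. Pgam1, the widely expressed form, was at 73.3 and 72.0 FPKM in WT SSCs and 1.95 and 2.19 FPKM in WT spermatocytes. Ldhal6b, a lactate dehydrogenase A-like gene, rose by 7.40, to 302 and 276 FPKM. Pkm2, listed under the older symbol for pyruvate kinase, fell by 5.53, from 228 and 225 FPKM to 3.66 and 4.18 FPKM, and Aldoc, an aldolase, fell by 4.90, from 39.4 and 40.2 FPKM to 0.41 and 0.32 FPKM. The 4 genes named here for their fold, with Pgam1 as the partner of Pgam2 chosen after its values were seen, were called with adjusted p of at most 1.1e-09 (limma).

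Of 8 transporters of sugars and of lactate 4 rose and 4 fell in each genotype, beside 26.1% of all genes that rose and 59.7% that fell in WT and 25.6% and 59.6% in KO. Slc2a3, a neuronal-type glucose transporter, was at 12.3 and 12.2 FPKM in WT SSCs and 610 and 597 FPKM in WT spermatocytes (5.51), while Slc2a1, the widely expressed one, was at 41.7 and 39.0 FPKM and 0.69 and 0.85 FPKM (-4.55). Slc2a5, a fructose transporter, rose by 6.41 and Slc16a7, a monocarboxylate transporter, by 4.10. Among 13 genes of pyruvate entry into mitochondria, 12 were tested, and 4 rose and 5 fell in WT, against the same shares of all genes. Pdk2, a kinase that inhibits pyruvate dehydrogenase, rose by 3.14, and the difference was -4.67 for the kinase Pdk1 and -3.26 for the kinase Pdk3. Pdp2, a phosphatase that acts against these kinases, was at 9.58 and 9.37 FPKM in WT SSCs and 0.11 and 0.17 FPKM in WT spermatocytes (-3.20).

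**Figure D5:**
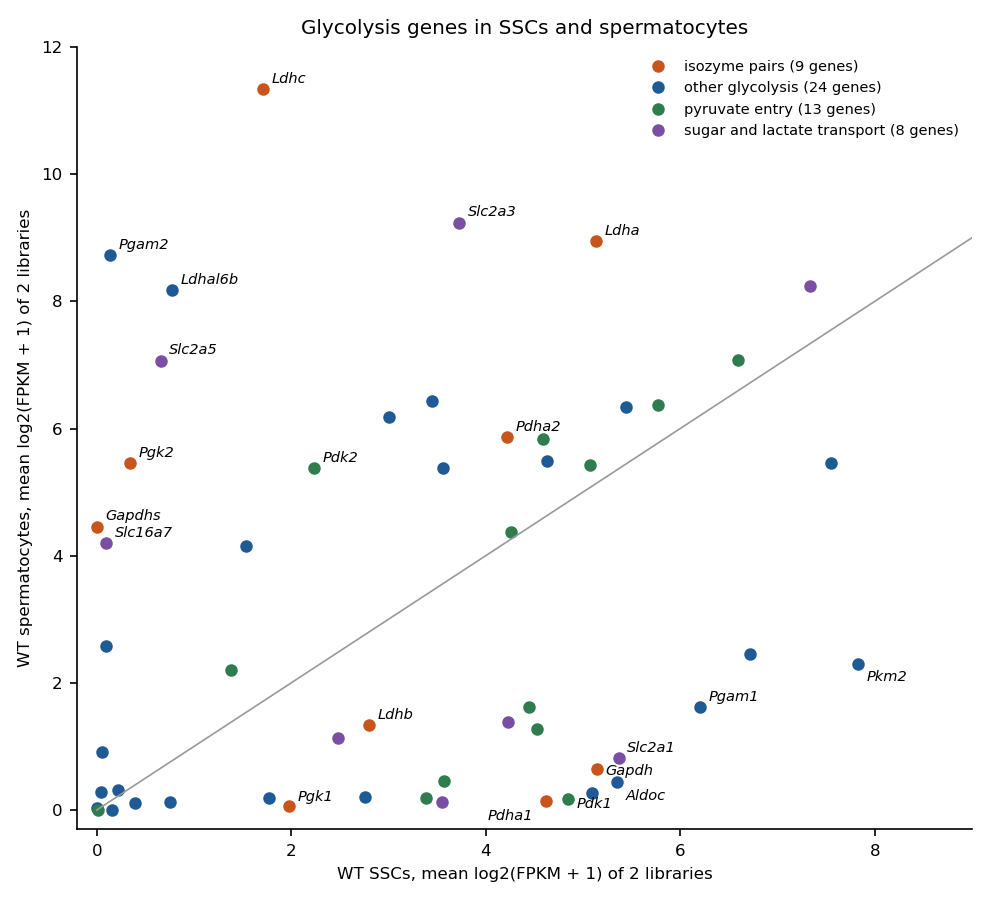
Mean log2(FPKM + 1) of the 2 WT SSC libraries against that of the 2 WT spermatocyte libraries for the members and the further genes of glycolysis, pyruvate entry and transport, with the line of equal level. Genes fall to both sides of the line, with Pgam2, Ldhal6b, Slc2a3 and Slc2a5 above it and Pkm2, Pgam1, Slc2a1 and Pdk1 below.

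X-linked genes with an autosomal copy were compared as Pgk1 and Pdha1 are with theirs. The 7 further X-linked parents fell in spermatocytes against SSCs in 7 of 7 cases in both genotypes, where 59.7% of all genes fell in WT and 59.6% in KO, with a median of -3.30 in WT and -3.45 in KO against -0.89 and -0.87 for all genes. Only 1 of these 7, Ubl4, passed the filter within the spermatocyte libraries, so the others were admitted through culture, where they are high. Their direction follows from the filter, and the 7 of 7 is a description only. Ubl4, a ubiquitin-like gene, fell by 4.27 in WT and Cstf2, a factor of mRNA 3' end formation, by 4.09. Of their 7 autosomal copies 3 rose and 2 fell in WT. How far reads can be assigned to 1 gene was examined for the members only, and not for these parents and copies. Gk2, a glycerol kinase, rose by 6.88, to 129 and 113 FPKM in WT spermatocytes, and Cetn1, a centrin, rose by 6.69, to 244 and 157 FPKM, while Utp14b, a factor of ribosome assembly, fell by 1.90. Pgk1 and Pdha1 also fell, the copies went both ways, and Pgk2 and Pdha2 both rose. Pgk1 and Pdha1 were likewise under 1 FPKM in spermatocytes, and Pgk2, Gk2 and Ubl4b were under it in culture. Their directions follow from the filter too, so no contrast between parents and copies is drawn from them.

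The same lists were compared under RA. Of 14 glycolysis genes tested 1 rose and 6 fell in WT and 1 rose and 7 fell in KO, beside 40.7% and 40.5% of all genes called, with medians of -0.22 and -0.29 against 0.08 and 0.07 for all genes. Aldoc fell by 0.69 in WT and 0.81 in KO, Pkm2 by 0.58 and 0.59, and Pfkl, a phosphofructokinase, rose by 0.60 and 0.58. Of 12 genes of pyruvate entry 6 rose and 2 fell in WT and 4 rose and 2 fell in KO. Brp44, a subunit of the mitochondrial pyruvate carrier, fell by 0.66 in WT and 0.87 in KO, and Dlat, a further component of pyruvate dehydrogenase, rose by 0.38 and 0.42, so that within this complex Dlat rose where Pdha1 fell. The KO comparison within cultured cells called 0 of 14 glycolysis genes, 0 of 12 of pyruvate entry and 1 of 6 transport genes, in SSCs as in c-KIT+ cells, where 4.90% and 2.70% of all genes were called. The transport gene was Emb, which encodes embigin, a partner of lactate transporters. It was at 10.8 and 10.7 FPKM in WT SSCs and 1.05 and 1.61 FPKM in KO SSCs (-2.34, SE 0.13, adjusted p = 2.9e-05, limma), and at 10.1 and 9.93 FPKM in WT c-KIT+ cells and 1.57 and 2.13 FPKM in KO c-KIT+ cells (-1.96, adjusted p = 0.000107). In spermatocytes the KO comparison called 1 of 13 glycolysis genes and 0 of 9 of pyruvate entry, beside 1.67% of all genes. The gene called was Aldoart2, a testis aldolase, which was lower in KO (-1.06, adjusted p = 0.0405, limma). Its levels were 3.77 and 6.57 FPKM in WT and 1.03 and 3.09 FPKM in KO.

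The genes whose levels were most like those of the testis forms were named by their Pearson correlation of log2(FPKM + 1) over the 12 libraries, which share the large difference between culture and spermatocytes. For Ldhc they were Efcab5, 1700019N12Rik and 1700010I14Rik, and 1038 of 9417 genes had a correlation over 0.99. For Pgk2 they were Trim69, Ccdc83 and Crisp2, with 947 genes over 0.99. For Gapdhs the nearest were Lyzl6, 1700018C11Rik and Smcp, with 144 genes over 0.99. Lyzl6 was listed at 0 in the 8 cultured libraries and at 5.00 and 6.41 FPKM in WT and 2.29 and 3.70 FPKM in KO spermatocytes. For Pdha2 they were Impa1, Ralgps2 and Tmem97, with 75 genes over 0.99, each of which was also expressed in culture, Tmem97 at 27.8 to 41.1 FPKM. For Ldhb the highest correlations were 0.91 for Susd3, 0.91 for Gpm6b and 0.90 for Daam2, and 0 genes reached 0.99. Susd3 was at 0.77 and 0.80 FPKM in WT spermatocytes and 1.51 and 5.94 FPKM in KO, the last of these in the library that was also high in Ldhb.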

How the data were processed

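RNA-seq of 8 cultured and 4 sorted germ cell libraries was analysed. The deposited files hold FPKM that the authors computed with Cufflinks 2.0.2 after TopHat2 2.0.6 alignment to mm9, according to the submitters' processing notes, and Cuffdiff is named there. Annotation and read length are not given in the sources used here. Of 23021 entries per library, 728 with 259 repeated symbols were left out. FPKM were used as log2(FPKM + 1) and genes at 1 FPKM in at least 2 fitted libraries were tested with limma 3.58.1 (R 4.3.3), with the variance trend switched on, and p-values were adjusted by Benjamini-Hochberg within each comparison. Cultured groups were fitted in 8 libraries, cell states in 12, and KO in spermatocytes in 4 with age as a block. In the library with confidence limits 78.6% of 5727 low genes gave whole fragments (tolerance 0.02), so no count test was run and the depth of single values in the other libraries is approximate. The members and lists were chosen with earlier results of these data known. Named genes were the members, Zmym3, up to 4 called genes of a list by size of difference, and the 3 most correlated genes. The settings tried were another pseudocount (0.1), dropping the filter or raising it to 5 FPKM, 4 scalings (1, an equal total without small RNA genes, chosen after seeing the data), no variance trend, a replicate block, fits of the compared groups, fits without age and leaving out each library, where a lone library is taken to vary like the other groups. The 150 bases printed and 250 bases searched come from RefSeq. Python 3.11.15 was used for tables.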

Additional observations from a re-analysis of the deposited data

How the results depend on the processing

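In WT against SSCs Ldhb kept its direction and lost its call with quantile normalization (-0.33) and median-ratio scaling (-0.66). The rises and falls of the members in spermatocytes against cultured cells kept their direction under every alternative, apart from Ldhb. For Pgk2, Gapdhs, Pgk1, Gapdh and Pdha1, near 0 on one side, the direction was not free to turn. The kept direction is therefore informative for Ldhc, Ldha and Pdha2 only. In KO against SSCs Ldhb was at 0.53 with quantile normalization and 0.38 with median-ratio scaling, and between -1.14 and 0.10 when a library was left out. In WT against c-KIT+ cells it was at 0.68 and 0.26 with these scalings, and in KO against c-KIT+ cells between -0.14 and 1.09 when a library was left out. For KO in spermatocytes, leaving out a library from the 12-library fit without age gave -0.1094 to 0.0006 for Ldha and -0.3657 to 0.0375 for Pgk2. The count of members raised by RA fell from 1 to 0 in WT and in KO without the filter, with the filter at 5 FPKM (which drops Ldhc) and with quantile normalization, and was 0 to 1 without single libraries. The count lowered by RA was 3 to 5 in WT and 3 to 4 in KO without single libraries, and 5 in KO with median-ratio scaling. For KO in SSCs 1 member, Ldha, was higher with an equal FPKM total and in a fit of the compared groups, and 0 to 1 without single libraries. The difference between KO and WT of spermatocytes against SSCs gave 0 to 1 higher and 0 to 1 lower. For KO in spermatocytes 0 in place of 1 were lower without the filter, without the variance trend, in the 12-library fit without age and in the 4 libraries without the block, and 0 to 1 were higher and 0 to 1 lower when single libraries were left out of the 12-library fit. Of 21 member differences with an unadjusted p of 0.2 or more, 20 changed sign under at least 1 alternative and 0 were called.

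Whether the replicate numbers pair the cultured libraries is not settled. The deviations of same-numbered SSC and c-KIT+ libraries correlated at 0.17 in WT and 0.28 in KO. Across the genotypes the correlations were -0.07 to 0.09. The replicate block joined the numbers across genotypes, so a pairing of SSCs with c-KIT+ cells within a genotype was not tested. With the replicate block no count of members moved by over 1.5 times, and the count of all genes called for KO in c-KIT+ cells fell from 324 to 213. Counts of all genes moved by over 1.5 times in other cases. For KO in SSCs 587 became 275 without the filter, 388 with the filter at 5 FPKM, 346 in the compared groups and 117 at the fewest without a library. For KO in c-KIT+ cells 324 became 140 without the filter, 129 in the compared groups and 78 at the fewest. For KO in spermatocytes 156 became 36 with a pseudocount of 0.1, 90 with the filter at 5 FPKM, 41 with an equal total, 248 with quantile normalization and 0 without the filter, the variance trend or the block. The 12-library fit without age, which tests more genes, called 67 higher and 112 lower, and 74 to 596 in all when a library was left out of it. For the difference between KO and WT of spermatocytes against SSCs 93 became 31 with a pseudocount of 0.1, 34 with the filter at 5 FPKM, 3 in the compared groups and 3 to 245 without a library. For RA in WT 4882 became 3129 without c-KIT+ replicate 2. The interaction rose from 0 to 4 with an equal total and was 0 to 2 without a library. Depth limits Pgk1, Pdha1 and Gapdh in spermatocytes, where the levels rest on few fragments.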
